A study of Mus musculus with 30 samples.

Results

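The genes described here are 10 markers of the adipocyte, the fat cell, among the 43629 genes of a count table from mouse fracture callus, the repair tissue that bridges a broken bone. They were taken by symbol and comprise the hormones adiponectin (Adipoq), leptin (Lep) and resistin (Retn), the lipid droplet proteins Cidec, Plin1 and Plin4, the complement protease adipsin (Cfd), the fatty acid carrier Fabp4, the lipase Lpl and the transcription factor Pparg, and all 10 were in the table. Male C57BL/6J mice of 20 weeks, either Lean or made obese by a high-fat diet (diet-induced obese, DIO), received an open tibial fracture with an intramedullary pin, and each library held poly(A) RNA from 1 callus with the soft tissue around it removed. There were 3 libraries in each of 10 groups: Lean on days (d) 3, 5, 7 and 10, and DIO on those 4 days and on d14 and d21. Lean callus of d14 and d21 was not analysed here, so no change after d10 can be compared with Lean. The obesity is a property of the whole animal, with no cell type targeted.

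Library totals ran from 13247122 to 26365620 counts, with a median of 16854427. Levels are given as CPM, the counts of a gene scaled to the library total (per 1000000) scaled by edgeR's TMM factors, and 3 counts correspond to between 0.106 and 0.23 CPM, the floor below which a level was taken as not detected. Osteoblast markers summed to 19449 CPM or more in every library and chondrocyte markers to 977 CPM or more, and keratinocyte markers of skin stayed at 4.51 CPM or less. One library stood apart: Lean d10 replicate 1 had the highest summed chondrocyte markers of all 30 libraries (78435 CPM), with 1335 CPM of skeletal muscle markers and 2.82 CPM of marrow B lineage markers.

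Adipocytes store triglyceride in a single large droplet coated by perilipins and CIDE proteins, and they secrete hormones that report on energy stores. PPARG, acting with C/EBP factors, drives their formation and switches on most of the other genes of this set. In bone, adipocytes form in the marrow from the same stromal progenitors that give osteoblasts, and marrow stromal cells express Adipoq, Lepr and Cxcl12 before any fat droplet appears. Fabp4 and Lpl are also made by macrophages, endothelium and muscle, and Plin4 by muscle, so those members are less specific to fat than Adipoq, Lep, Cidec, Plin1 or Cfd. Bulk RNA cannot tell more cells of a type from more RNA per cell.

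Promoter windows from RefSeq (GRCm38.p6, 250 bases before to 50 bases after each start) were found for 8 of the 10 members, with 11 windows in all, and none was found for Fabp4 and Lpl. Each was searched on both strands for TTGCNNAA, a letter pattern bound by C/EBP factors, and for AGGTCANAGGTCA, the direct repeat to which PPARG with RXR binds, allowing 2 mismatches in its 12 fixed letters. The C/EBP pattern was in 4 of the 11 windows, at Lep, Plin1, Cidec and Pparg, against 10.8% of all 32851 windows. The direct repeat was in none of the 11 and in 3.86% of all windows, and one repeat unit of it, AGGTCA, matched exactly, was in 2 windows, both of Pparg, against 16.3% of all. These are letter matches within short windows and describe no binding. The windows of the 2 members on which the diet comparisons turn, Adipoq (chr16:23146286-23146585, plus strand) and the third start of Pparg (chr6:115421816-115422115, plus strand), are shown with those of Plin1 (chr7:79732727-79733026, minus strand) and Lep (chr6:29059971-29060270, plus strand), with C/EBP patterns in capitals:
Adipoq: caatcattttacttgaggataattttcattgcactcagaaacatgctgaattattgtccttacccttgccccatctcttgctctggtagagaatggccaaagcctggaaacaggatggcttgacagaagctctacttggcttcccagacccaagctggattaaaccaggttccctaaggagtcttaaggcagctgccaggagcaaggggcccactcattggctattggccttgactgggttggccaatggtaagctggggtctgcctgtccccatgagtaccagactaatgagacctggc
Pparg: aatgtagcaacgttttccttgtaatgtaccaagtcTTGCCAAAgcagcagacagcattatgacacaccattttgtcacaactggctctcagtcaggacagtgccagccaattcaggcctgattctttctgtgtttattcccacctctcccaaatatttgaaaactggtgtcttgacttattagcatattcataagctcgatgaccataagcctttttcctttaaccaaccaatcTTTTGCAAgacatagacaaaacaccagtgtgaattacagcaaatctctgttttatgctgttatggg
Plin1: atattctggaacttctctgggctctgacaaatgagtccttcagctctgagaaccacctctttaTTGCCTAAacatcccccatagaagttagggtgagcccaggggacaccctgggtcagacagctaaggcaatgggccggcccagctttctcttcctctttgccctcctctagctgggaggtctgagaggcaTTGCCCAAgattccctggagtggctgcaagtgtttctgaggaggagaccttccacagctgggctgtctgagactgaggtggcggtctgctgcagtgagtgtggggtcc
Lep: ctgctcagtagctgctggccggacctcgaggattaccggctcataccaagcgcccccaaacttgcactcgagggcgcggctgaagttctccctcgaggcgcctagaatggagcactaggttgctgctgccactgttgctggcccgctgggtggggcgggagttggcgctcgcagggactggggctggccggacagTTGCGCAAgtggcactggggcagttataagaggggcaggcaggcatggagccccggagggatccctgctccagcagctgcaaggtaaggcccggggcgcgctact
The capitals begin at position -55 from the Lep start, at -187 and -58 for Plin1, and at -215 and -16 for Pparg, while the Adipoq window has none.

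The comparisons asked whether the callus of obese mice held more or less adipocyte RNA than that of Lean mice on the same day. They also asked how that RNA moved over the days. On d7 Adipoq, Pparg and Lpl were lower in DIO than in Lean, 3 of the 7 members tested, beside 0.92% of genes. Leaving out 1 library at a time gave 0 to 3 calls on that day. On d10 all 9 members tested had a positive difference, with a median of 1.78 against 0.02 over all genes. None of these passed the test, and Lep was too low to test. In DIO, 7 of the 10 were higher on d10 than on d7, beside 6.01% of all genes tested, and 9 of the 10 were higher on d21 than on d3, beside 23.5% of genes, Adipoq by 5.09 ± 0.41 (SE, 3 libraries against 3) on the log2 scale. In Lean, none of the 9 that could be tested passed the test between days, beside 19% of genes. The plot of levels by day shows the 10 members in all 30 libraries.

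**Figure D1:**
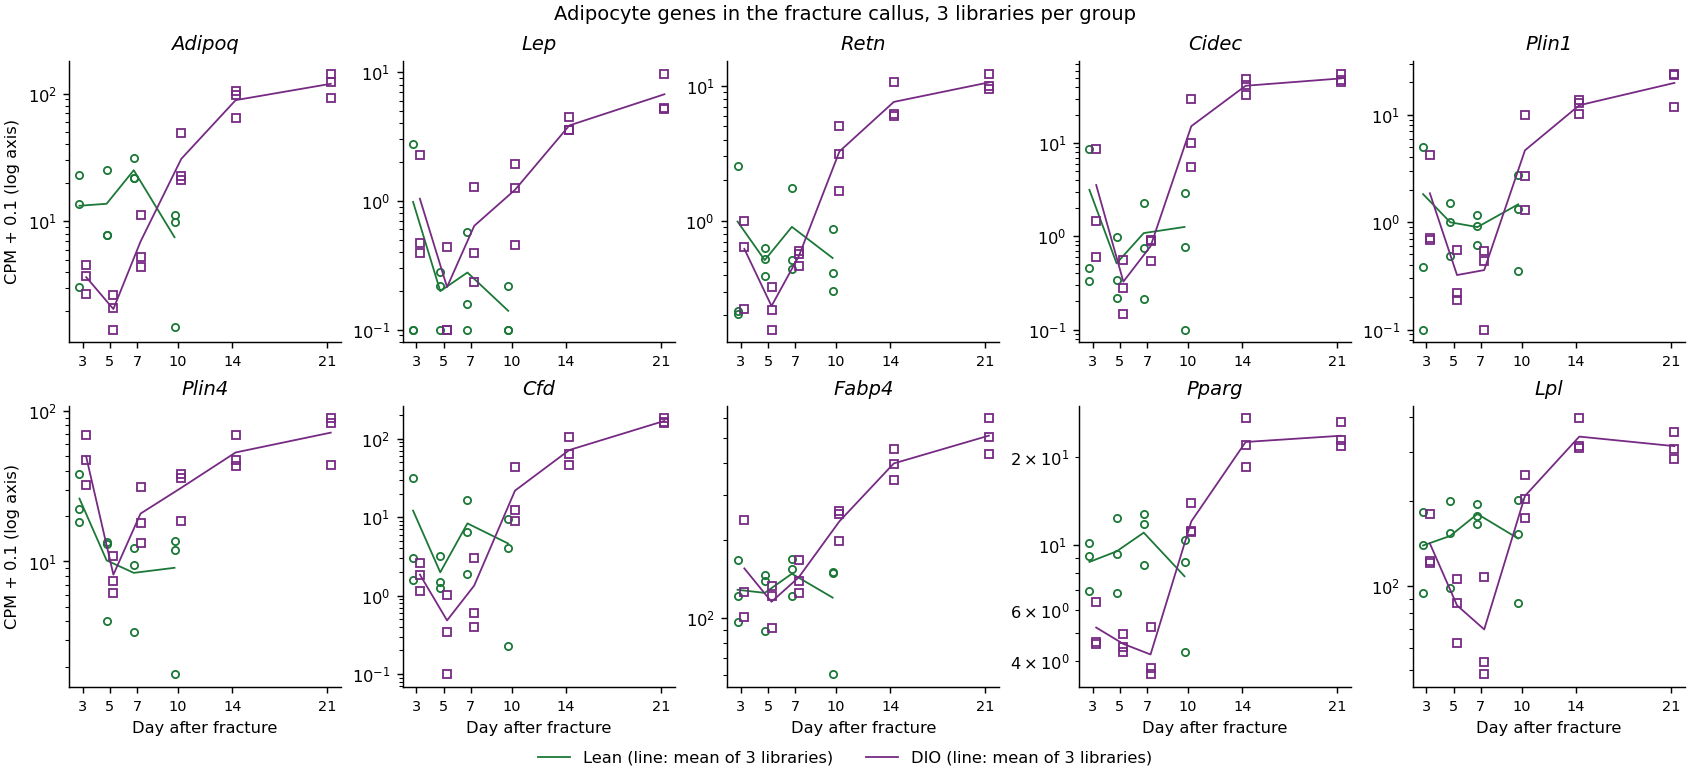
CPM plus 0.1 on a log axis against the day after fracture for each of the 10 genes, with 1 point per library (circles Lean, squares DIO) and lines through the means of 3 libraries. For Adipoq the DIO points lie at 1.32 to 11.1 CPM through d7 and at 91.7 to 143 CPM on d21, and Plin4 in DIO is at 32.1 to 69.3 CPM on d3, which overlaps its d21 points.

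Adipoq (ENSMUSG00000022878, chr16:23146536-23158028, plus strand, GRCm38), whose product adiponectin is secreted by fat cells and raises insulin sensitivity, had 2.98, 13.5 and 22.9 CPM in the 3 libraries of Lean d3, 7.76, 25.3 and 7.77 CPM on Lean d5, 21.9, 31.3 and 21.9 CPM on Lean d7, and 1.38, 9.77 and 11.1 CPM on Lean d10. In DIO it had 4.44, 3.65 and 2.58 CPM on d3, 1.99, 1.32 and 2.56 CPM on d5, 5.14, 4.32 and 11.1 CPM on d7, 48.7, 22.7 and 21.0 CPM on d10, 64.1, 105 and 97.4 CPM on d14, and 124, 91.7 and 143 CPM on d21. Every DIO library of d5 and d7 was below every Lean library of the same day, and every DIO library of d10 was above every Lean d10 library. On d3 the diets overlapped, since Lean d3 replicate 1 lay within the DIO range.

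Pparg (ENSMUSG00000000440, chr6:115360951-115490399, plus strand, GRCm38), the transcription factor that commits cells to the fat lineage, moved over a narrower range. It had 6.84, 9.04 and 10.0 CPM on Lean d3, 9.19, 12.2 and 6.76 CPM on Lean d5, 11.7, 12.6 and 8.40 CPM on Lean d7, and 4.197, 8.62 and 10.3 CPM on Lean d10. In DIO the values were 6.30, 4.56 and 4.49 CPM on d3, 4.38, 4.86 and 4.21 CPM on d5, 3.70, 3.52 and 5.14 CPM on d7, 11.03, 13.8 and 10.9 CPM on d10, 18.3, 21.8 and 26.9 CPM on d14, and 22.7, 21.6 and 26.1 CPM on d21. The diets did not overlap on any of the 4 shared days, with DIO the lower on d3, d5 and d7 and the higher on d10.

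The other hormones were rare. Lep, the satiety hormone, was under 3 counts in 12 of the 30 libraries and at 0 counts in 8, and it reached 3 counts in 3 of the 12 Lean libraries. Its highest level in Lean was 2.64 CPM, in Lean d3 replicate 3, where it had 53 counts. In DIO it had 2.16, 0.29 and 0.369 CPM on d3, 0, 0 and 0.341 CPM on d5, 1.19, 0.293 and 0.134 CPM on d7, 1.84, 1.16 and 0.353 CPM on d10, 4.37, 3.42 and 3.47 CPM on d14, and 5.19, 5.11 and 9.59 CPM on d21. Lep was thus detected in all libraries of DIO d3, d10, d14 and d21 and in none of Lean d10, where up to 2 counts were seen. Retn, a hormone of mouse fat, ranged from 0.106 to 2.44 CPM in Lean and from 0.0569 to 0.90 CPM in DIO through d7, and then had 4.90, 3.04 and 1.55 CPM on d10, 6.11, 10.5 and 5.87 CPM on d14, and 9.40, 9.93 and 12.2 CPM on d21.

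Cidec and Plin1, both droplet proteins, followed a like course. Cidec, which fuses droplets, had 0.234, 0.353 and 8.58 CPM on Lean d3, 8.52, 0.497 and 1.35 CPM on DIO d3, and at most 2.81 CPM in the other Lean groups. In DIO it was between 0.0452 and 0.806 CPM on d5 and d7, and then had 29.9, 10.0 and 5.44 CPM on d10, 32.6, 42.5 and 48.4 CPM on d14, and 44.8, 48.0 and 55.3 CPM on d21. Plin1, the coat protein that gates lipolysis in fat cells, had 9.88, 2.61 and 1.20 CPM on DIO d10, 10.2, 13.7 and 12.7 CPM on d14, and 11.6, 23.6 and 23.9 CPM on d21, with at most 4.89 CPM in Lean and 4.08 CPM in DIO before d10. Lean d3 replicate 3 held the highest level in its group of every member, and DIO d3 replicate 1 that of every member but Cfd. Plin1 shares stretches of 103 to 132 bases at 95% identity or more with Mapk12 and several small RNA genes, so a few of its reads may be shared.

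Plin4, which coats small and nascent droplets, was the exception. On d3 it had 69.3, 32.1 and 46.7 CPM in DIO and 22.03, 18.2 and 37.9 CPM in Lean. In DIO it was at 7.36, 6.12 and 10.8 CPM on d5, 30.96, 13.2 and 17.9 CPM on d7, 37.8, 35.9 and 18.6 CPM on d10, 46.9, 68.6 and 42.8 CPM on d14, and 43.3, 82.2 and 88.8 CPM on d21. In Lean it was between 1.69 and 13.5 CPM from d5 to d10. Its exons share 17 bases with Hdgfl2 on the other strand. The Plin4 levels of d3 and d21 in DIO therefore overlapped. Skeletal muscle markers, summed, ran from 503 to 34259 CPM over the libraries, and their part in the Plin4 level was not tested.

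Cfd, the complement factor D secreted by fat cells, had 1.46, 2.93 and 31.7 CPM on Lean d3, 1.37, 3.11 and 1.16 CPM on Lean d5, 16.5, 6.44 and 1.80 CPM on Lean d7, and 0.125, 3.97 and 9.45 CPM on Lean d10. In DIO it had 1.74, 2.49 and 1.05 CPM on d3, 0, 0.24 and 0.91 CPM on d5, 0.501, 0.293 and 2.94 CPM on d7, 43.8, 12.3 and 8.90 CPM on d10, 46.4, 105 and 63.6 CPM on d14, and 161, 164 and 181 CPM on d21. All DIO d21 libraries lay above all others for this gene.

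Fabp4 and Lpl, the carrier and the lipase that bring fatty acids into cells, were abundant throughout. Fabp4 ranged from 60.5 to 169 CPM in Lean and from 91.6 to 240 CPM in DIO through d7, and had 260, 252 and 199.6 CPM on DIO d10, 343, 455 and 396 CPM on d14, and 595, 502 and 433 CPM on d21. Lpl (ENSMUSG00000015568, chr8:68880491-68907448, plus strand, GRCm38) had 94.2, 139.6 and 184 CPM on Lean d3, 199.9, 154 and 98.2 CPM on Lean d5, 167, 197 and 178 CPM on Lean d7 and 87.1, 202 and 153 CPM on Lean d10. In DIO, Lpl had 181, 123 and 121 CPM on d3, 62.7, 106 and 87.0 CPM on d5, 108, 48.4 and 53.6 CPM on d7, 248, 205 and 174 CPM on d10, 316, 395 and 310.2 CPM on d14, and 283, 307 and 354 CPM on d21. Within DIO both were lowest on d5 or d7, and neither was under 48.4 CPM in any library.

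Levels between genes were compared per kilobase of exon. In DIO d21 the order was Cfd (183 ± 12.02 CPM per kilobase, SD, n = 3), Fabp4 (114 ± 18.1), Adipoq (86.4 ± 18.7), Lpl (30.03 ± 3.47), Cidec (26.6 ± 2.89), Plin4 (12.4 ± 4.25), Pparg (7.95 ± 0.803), Retn (6.64 ± 0.923), Plin1 (4.24 ± 1.51) and Lep (1.98 ± 0.765). Between neighbours in this order, the gap exceeded the sum of their SDs only from Cfd to Fabp4, from Adipoq to Lpl and from Cidec to Plin4. In Lean d7, Fabp4 (33.1 ± 5.42), Adipoq (18.1 ± 3.94) and Lpl (17.2 ± 1.44 CPM per kilobase) led, and Cidec, Retn, Plin1 and Lep were each below 1 CPM per kilobase. The exon length used for Fabp4 counts a retained intron. With the 896 bases of its coding transcript, Fabp4 would have 569 ± 90.7 CPM per kilobase in DIO d21 and stand above Cfd, so its place in this order depends on the length used. The other lengths also join the exons of all transcripts of a gene, with 10478 bases for Lpl, the longest of the set. No transcript length was tried for those genes, so their places, that of Lpl below Adipoq among them, may depend on the length too.

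In the comparison of diets on d3, 9 members could be tested, all but Lep, which failed the filter on low counts. None passed an adjusted p of 0.05 by edgeR's quasi-likelihood test, beside 0.0% of 15772 genes, and 4 members had an unadjusted p under 0.05, as did 2374 genes. Those 4 were Adipoq (log2 fold change -1.90 ± 0.61, SE, adjusted p = 0.212), Cfd (-2.76 ± 1.05, adjusted p = 0.277), Pparg (-0.77 ± 0.24, adjusted p = 0.198) and Plin4 (0.91 ± 0.33, adjusted p = 0.262). DESeq2 called 753 genes on d3 and no member. Without Lean d3 replicate 3 the Cfd difference was -0.34 (adjusted p = 0.741) and that of Adipoq -1.24 (adjusted p = 0.305). The median over the 9 was 0.01, and over all genes 0.01.

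On d5, Lep, Retn, Cidec and Plin1 were too low to test, and none of the other 6 passed, beside 1.08% of 15722 genes. All 6 differences were negative, with a median of -0.95 against 0.01 over all genes. The log2 fold change was -2.81 ± 0.55 (SE) for Adipoq, with an adjusted p of 0.0613, and -1.97 without Lean d5 replicate 2. Cfd had -2.33 ± 0.94 (adjusted p = 0.24), Pparg -1.07 ± 0.26 (adjusted p = 0.0938) and Lpl -0.83 ± 0.28 (adjusted p = 0.172). DESeq2 called 3 of these, Adipoq, Pparg and Lpl. Of the 10 members, 4 had every DIO library below every Lean library (Adipoq, Retn, Cfd and Pparg), a pattern shared by 12.4% of the genes tested. Retn was not tested and is not among the genes of that share.

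On d7, Adipoq, Pparg and Lpl were lower in DIO, 3 of the 7 members tested, beside 0.92% of 15753 genes called lower. Adipoq averaged 6.85 ± 3.69 CPM (SD, n = 3) in DIO and 25.0 ± 5.44 CPM in Lean, a log2 fold change of -1.85 ± 0.35 (SE, adjusted p = 0.0293). Pparg differed by -1.39 ± 0.28 (adjusted p = 0.0369) and Lpl by -1.35 ± 0.29 (adjusted p = 0.0437). No member was called higher, beside 1.4% of genes, although Plin4 had 1.34 ± 0.45 (adjusted p = 0.164). Cfd had -2.69 ± 0.88 (adjusted p = 0.158), and Fabp4, with -0.03 ± 0.18, showed no difference that this test could detect. Every DIO library was below every Lean one for 4 members, the 3 called and Plin1, as for 12% of genes tested. Plin1 failed the filter and is not among the genes of that share. For Plin4 every DIO library was above every Lean one, with 13.2 CPM at the lowest in DIO and 12.25 CPM at the highest in Lean. These calls were fragile: without Lean d7 replicate 1, Lean d7 replicate 2 or DIO d7 replicate 2 none of the 3 was left, and without Lean d7 replicate 3 or DIO d7 replicate 1 1 was left, Pparg and Lpl in turn. Without DIO d7 replicate 3, Lpl was lost and Cfd was called. Macrophages also make Fabp4 and Lpl, and the 12 macrophage markers summed to between 1091 and 1137 CPM on DIO d7 and between 1446 and 2388 CPM on Lean d7. Of these 12 markers 4 were lower in DIO on d7, beside 0.92% of genes, among them Gpnmb (-1.60 ± 0.25, adjusted p = 0.0173), Mrc1 (-1.02 ± 0.16, adjusted p = 0.0195) and Csf1r (-1.02 ± 0.19, adjusted p = 0.0273). The part of macrophages in the levels of Adipoq, Pparg and Lpl was not tested.

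**Figure D2:**
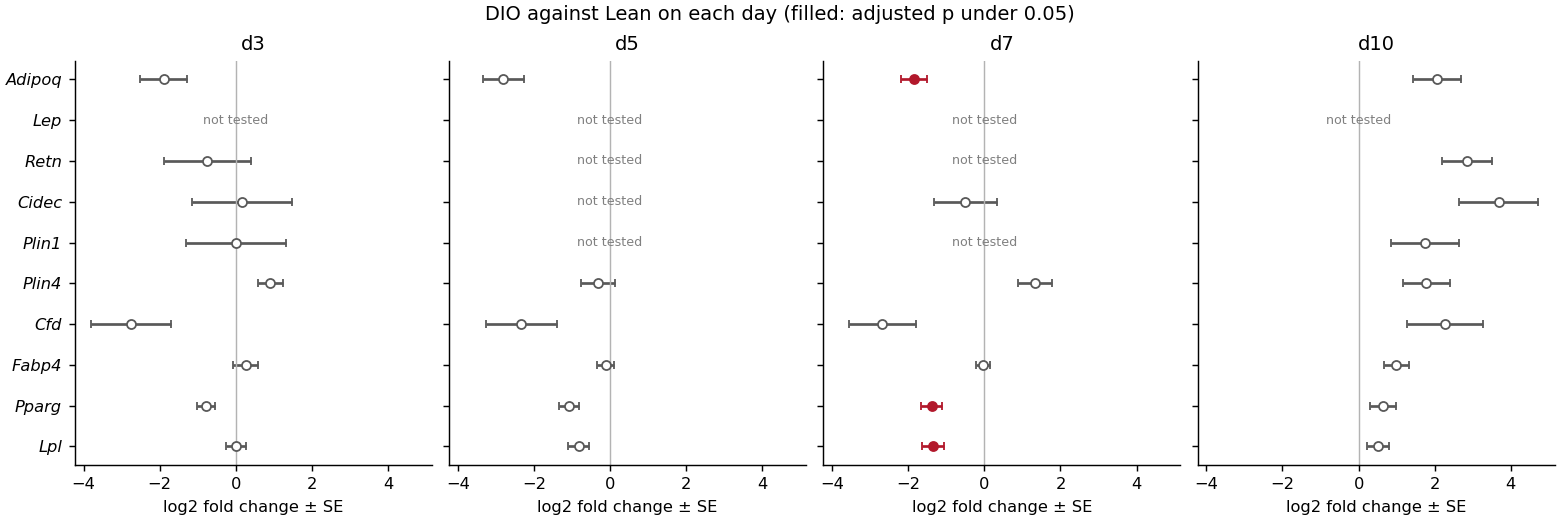
Log2 fold change of DIO against Lean with its SE for each gene on d3, d5, d7 and d10, 3 libraries per diet, filled in red where the adjusted p was under 0.05 and marked where a gene failed the low-count filter. The 3 filled points, Adipoq, Pparg and Lpl, are on d7 at -1.35 to -1.85, and all 9 points on d10 lie to the right of 0.

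On d10 all 9 tested members were higher in DIO by point estimate, from 0.51 for Lpl to 3.68 for Cidec on the log2 scale, with a median of 1.78 against 0.02 over all genes. None passed the test, beside 0.0% of 15341 genes. The filter can be met by the higher group alone, so a gene near the floor in Lean was tested only if DIO was high. An unadjusted p under 0.05 was found for 6 members and 1082 genes. Cidec averaged 15.1 CPM in DIO and 1.16 CPM in Lean (3.68 ± 1.04, adjusted p = 0.686) and Retn 3.17 and 0.431 CPM (2.84 ± 0.65, adjusted p = 0.686). For Adipoq, with 30.8 ± 15.5 CPM in DIO and 7.40 ± 5.26 CPM in Lean (SD, n = 3), the log2 fold change was 2.06 ± 0.64 (adjusted p = 0.686). DESeq2 called Retn on d10, 1 of its 56 genes. All DIO libraries exceeded all Lean libraries for 7 of the 10 members (Adipoq, Lep, Retn, Cidec, Plin4, Fabp4 and Pparg), a separation found for 7.11% of genes tested. Lep failed the filter and is not among the genes of that share. Lean d10 replicate 1 had the lowest Adipoq, Cidec, Plin1, Plin4, Cfd, Fabp4, Pparg and Lpl of its group, and without it the Adipoq difference was 1.56 (adjusted p = 0.0899). Leaving out 1 library at a time gave 2.71 to 5.49 for Cidec, and without DIO d10 replicate 1 the Plin1 difference was 0.48.

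Whether the diet difference itself changed from d7 to d10 was tested over the 24 libraries of d3 to d10. It passed for Adipoq (log2 change of 3.92 ± 0.92, adjusted p = 0.0181), Pparg (2.03 ± 0.41, adjusted p = 0.00707) and Lpl (1.87 ± 0.47, adjusted p = 0.0251), 3 of 10 members, beside 1.7% of 17057 genes called in that direction. None went the other way, beside 3.37% of genes. Cfd had the greatest estimate, 4.97 ± 1.65, with an adjusted p of 0.0789. Without Lean d10 replicate 1, Adipoq and Pparg still passed and Lpl did not (1.60, adjusted p = 0.0831). Without DIO d10 replicate 1, Lean d7 replicate 2 or DIO d7 replicate 2, Pparg alone passed. For any change in the diet difference over d3 to d10, Adipoq (adjusted p = 0.0334) and Pparg (adjusted p = 0.0354) passed, beside 1.65% of genes, and none passed without Lean d10 replicate 1, Lean d7 replicates 1 or 2, DIO d5 replicate 1, or any 1 of the DIO d10 libraries.

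In Lean, d10 against d3 gave no call among 9 members tested, beside 29.3% of 16471 genes, and 1 unadjusted p under 0.05, for Plin4 (-1.52 ± 0.68, adjusted p = 0.112). None of the 9 passed for any difference between the 4 days in Lean, beside 19% of genes, with none at an unadjusted p under 0.05 and none called by DESeq2, while Plin4 was called with all 30 libraries in 1 fit. In DIO all 10 members differed between days, as did 59.1% of 16995 genes.

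From d7 to d10 in DIO, 7 of the 10 members rose, beside 6.01% of genes, and none fell, beside 7.01%. Here too the filter can be met by the higher days alone. Lep, Retn and Plin1 failed it between diets on d7, so a fall from d7 could hardly be called for them. Among the droplet genes, Cidec rose by 4.46 ± 0.85 (SE, adjusted p = 0.0019) and Plin1 by 4.14 ± 0.97 (adjusted p = 0.00834). Among the secreted products, Cfd rose by 4.09 ± 0.73 (adjusted p = 0.00115), Retn by 2.79 ± 0.53 (adjusted p = 0.00185) and Adipoq by 2.15 ± 0.37 (adjusted p = 0.000839). Pparg rose by 1.52 ± 0.21 (adjusted p = 0.000146) and Lpl by 1.57 ± 0.28 (adjusted p = 0.000992). Fabp4 (0.71, adjusted p = 0.0779), Plin4 (0.56, adjusted p = 0.371) and Lep (0.99, adjusted p = 0.529) did not pass. DIO d10 replicate 1 was the highest of its group for every member but Pparg. Without that library Plin1 was no longer called (2.88, adjusted p = 0.0648), while Cidec had 3.48 and Cfd 3.06. Without DIO d7 replicate 3, Cfd had 5.71. All 3 libraries of d10 were above all 3 of d7 for 8 of the 10 members, all but Lep and Plin4, as for 14% of genes tested.

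From d10 to d14 the estimates were positive for all 10, but only Adipoq (1.53 ± 0.35, adjusted p = 0.0497) and Pparg (0.91 ± 0.20, adjusted p = 0.0464) passed, beside 0.583% of genes higher and 0.177% lower. Without any 1 of 5 of the 6 libraries neither was called, and without DIO d10 replicate 1 Adipoq and Cfd were. In every one of the 10, all DIO d14 libraries were above all DIO d10 libraries, also a pattern of 14% of genes tested. From d14 to d21 no member passed, beside 19.6% of genes, DESeq2 called none, and Cfd alone had an unadjusted p under 0.05 (1.25 ± 0.57, adjusted p = 0.126).

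**Figure D3:**
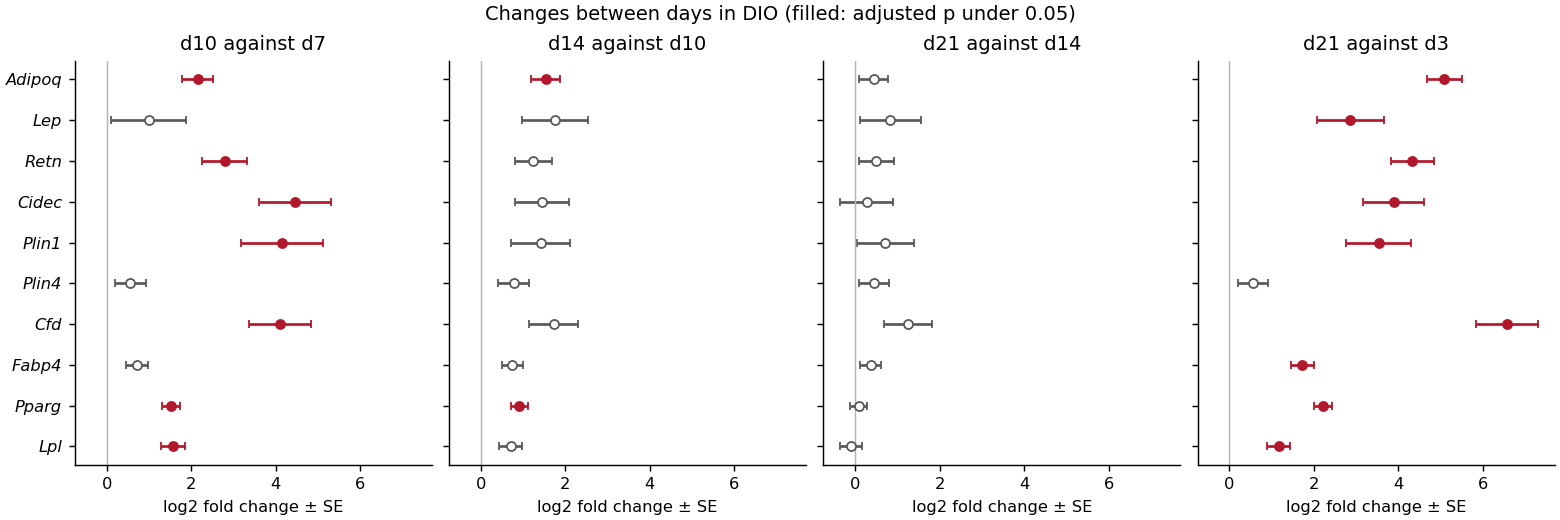
Log2 fold change with its SE for each gene between days within DIO, 3 libraries per day, filled in red where the adjusted p was under 0.05. From d7 to d10 there are 7 filled points, from d10 to d14 2, from d14 to d21 none, and from d3 to d21 9, with Plin4 open at 0.56.

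Over the whole course, d21 against d3, 9 of 10 rose, beside 23.5% of genes higher and 21.8% lower. Lep failed the low-count filter between diets on d3 and entered here through the later days. Cfd went from 1.76 to 169 CPM (6.57 ± 0.74, adjusted p = 3.92e-06) and Adipoq from 3.56 to 119 CPM (adjusted p = 3.23e-07). Retn rose by 4.33 ± 0.51, Cidec by 3.88 ± 0.73, Plin1 by 3.53 ± 0.76, Lep by 2.87 ± 0.79, Pparg by 2.22 ± 0.21, Fabp4 by 1.73 ± 0.26 and Lpl by 1.18 ± 0.27 on the log2 scale. Plin4, high on d3 already, had 0.56 ± 0.36 (adjusted p = 0.22). The 9 calls were the same in number without any 1 of the libraries, and without DIO d3 replicate 1 the estimates were 5.80 for Cidec, 5.03 for Plin1 and 4.32 for Lep. The median over the 10 was 3.20, against 0.03 over all genes.

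Other genes of the fat cell were read from lists beside the members. Of 16 further adipocyte markers 14 could be tested, and from d3 to d21 in DIO 10 rose and 1 fell, beside 23.5% of all genes higher and 21.8% lower, with a median of 3.29. Pck1, which supplies glycerol for triglyceride, rose by 4.92 ± 0.66 (adjusted p = 1.91e-05), Thrsp, a lipogenic protein, by 3.83 ± 0.53 (adjusted p = 2.31e-05) and Mrap, an accessory protein of the ACTH receptor, by 3.54 ± 0.53 (adjusted p = 5.26e-05). The one that fell was Cidea, a droplet protein of brown fat (-2.36 ± 0.71, adjusted p = 0.0116), and Ucp1, the thermogenic protein of brown fat, averaged no more than 0.179 CPM in any group. From d7 to d10 in DIO 3 rose, Thrsp, Mrap and Pck1, beside 6.01% of all genes, and none fell, beside 7.01%. Between diets none was called on any of the 4 days.

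Enzymes and droplet proteins that many cells share were read against the same 23.5% and 21.8% of genes. From d3 to d21 in DIO, of 11 tested genes of droplets and triglyceride synthesis 3 rose and 2 fell, of 6 lipolysis genes 4 rose, and of 8 fatty acid synthesis genes 1 rose and 2 fell. The 1 that rose was Scd1, the stearoyl-CoA desaturase, from 82.1 to 1128 CPM (3.80 ± 0.34, adjusted p = 5.23e-07), and it already rose from d10 to d14 (2.04 ± 0.32, adjusted p = 0.0227). Of 7 fatty acid uptake genes 3 rose and 4 fell, and of 11 other adipogenic transcription factors 1 rose, Ebf1 (1.45 ± 0.19, adjusted p = 1.2e-05), and 5 fell. Between diets, the calls among these lists were Angptl4, an inhibitor of LPL, which was higher in DIO on d5 (1.08 ± 0.18, adjusted p = 0.0458), and no other on any of the 4 days. Among 5 receptors of adipokines, 4 rose from d3 to d21 in DIO, including Lepr, the leptin receptor (2.03 ± 0.32, adjusted p = 7.42e-05), and Cdh13, which binds adiponectin, fell (-1.37 ± 0.35, adjusted p = 0.00453).

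The genes whose levels were most like that of Adipoq over the 30 libraries, by Pearson's r of log2 CPM among 16054 genes, included several that are known from lymphocytes and marrow stroma. Among the first 10 outside the set were Gpr182, Cd79b, Cd79a, Cxcl12, Serpina3c, Lck, Gimap3, Fcrl1 and Arrdc4, with r from 0.93 to 0.95. Cd79a and Cd79b encode the signalling chains of the B cell receptor, Lck a kinase of T cells, and Cxcl12 the chemokine that marrow stroma uses to hold blood progenitors. Of the members, Pparg ranked 8 and Cfd 9 among 16053 genes by this measure, while Retn ranked 102, Fabp4 166, Plin1 180, Lpl 255, Cidec 259, Lep 1045 and Plin4 2360. The points share library, depth and tissue composition, and the groups differ, so r was also taken after subtracting each group's mean: it was then 0.81 for Cfd, 0.78 for Pparg, 0.75 for Plin1, 0.70 for Cidec and 0.40 for Lep. For Fabp4 it was 0.61, for Plin4 0.59, for Lpl 0.53 and for Retn 0.46. With the mean of the marrow B lineage markers it was 0.74, with marrow stroma markers 0.66 and with chondrocyte markers -0.52.

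**Figure D4:**
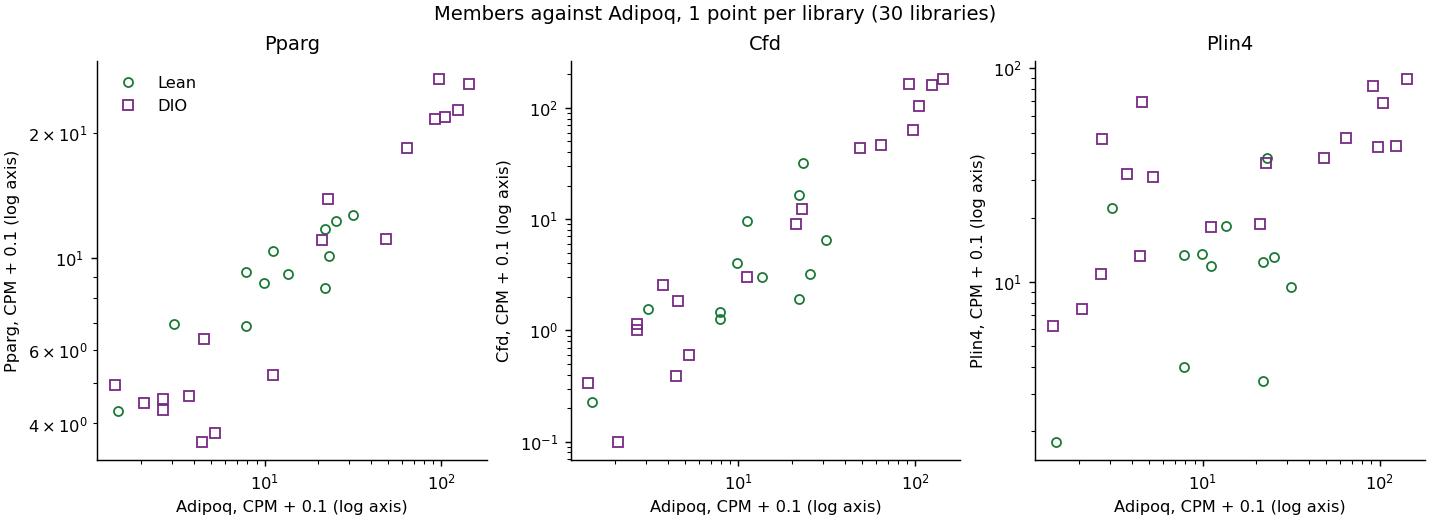
CPM plus 0.1 of Pparg, Cfd and Plin4 against that of Adipoq in each of the 30 libraries, both axes logarithmic, circles Lean and squares DIO. Pparg and Cfd track Adipoq across both diets (r of 0.93 each on the log2 scale), and Plin4 less so (0.55), with DIO points of low Adipoq and high Plin4 at the upper left.

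Markers of some other cells moved with the members. Over the 30 libraries, r with Adipoq was 0.94 for marrow B lineage, 0.90 for marrow stroma and 0.84 for erythroid markers. It was -0.03 for skeletal muscle, -0.08 for macrophage, -0.24 for endothelial and -0.50 for chondrocyte markers. Marrow B lineage markers, 10 genes, summed to between 8.20 and 38.1 CPM on DIO d7, 85.4 and 141 CPM on DIO d10, 261 and 501 CPM on DIO d14, and 647 and 921 CPM on DIO d21. Of these 10 markers, 9 rose from d7 to d10 in DIO, beside 6.01% of all genes tested. Marrow stroma markers summed to between 409 and 474 CPM on DIO d7, 920 and 1238 CPM on DIO d10, and 1968 and 2387 CPM on DIO d21. Cxcl12 was called wherever Adipoq was in the single-step comparisons. It was lower in DIO on d7 (-1.10 ± 0.21, adjusted p = 0.0289) and rose in DIO from d7 to d10 (1.54 ± 0.20, adjusted p = 7.07e-05) and from d10 to d14 (1.14 ± 0.20, adjusted p = 0.0232). Of the 7 stroma markers it was the only 1 called on d7, beside 0.92% of genes lower, and from d10 to d14, beside 0.583% higher. From d7 to d10 it was 1 of 3 that rose, beside 6.01% of genes. On Lean d7 and Lean d10, B lineage markers summed to between 61.5 and 67.3 CPM and between 2.82 and 103 CPM. Erythroid markers ran from 812 to 8047 CPM on DIO d7, from 2018 to 5116 CPM on DIO d10 and from 27237 to 38701 CPM on DIO d21. Of the 9 tested, 0 were called from d7 to d10 in DIO, and 6 rose from d14 to d21, beside 19.6% of genes called. Skeletal muscle markers were between 25168 and 34259 CPM on DIO d10, above the other groups' medians, and between 503 and 17333 CPM on DIO d21. Chondrocyte markers were higher in DIO on d7, 4 of 12, beside 1.4% of genes, and 10 of 12 fell from d7 to d10 in DIO, beside 7.01%. Endothelial markers ran from 535 to 960 CPM over all libraries, with none called between diets on d7. Macrophage markers ran from 1091 to 3012 CPM. For 3 of the 12 the diet difference rose from d7 to d10, beside 1.7% of genes: Csf1r (1.18, adjusted p = 0.0143), Cd68 (0.96, adjusted p = 0.0343) and Gpnmb (2.12, adjusted p = 0.0444). The part of these cells in the levels of the members was not tested.

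**Figure D5:**
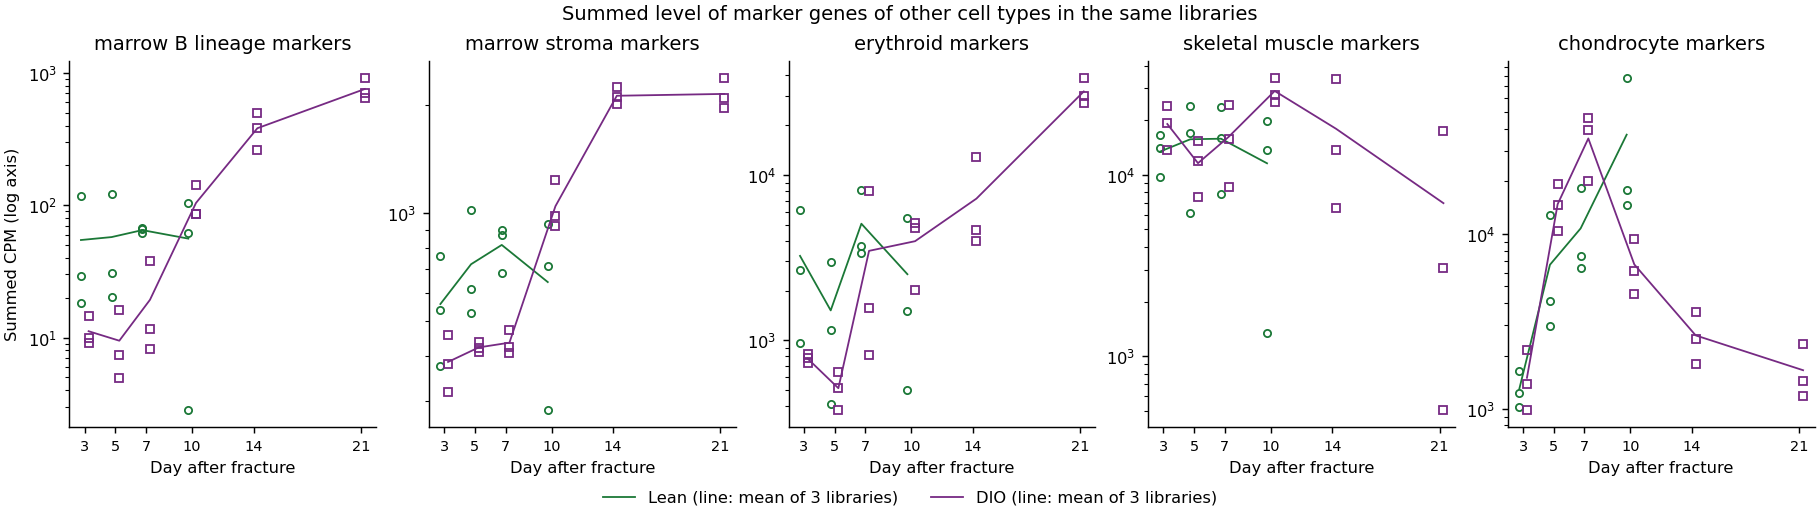
Summed CPM of the markers of marrow B lineage, marrow stroma, erythroid cells, skeletal muscle and chondrocytes against the day after fracture, on log axes, with 1 point per library and lines through means of 3. B lineage markers in DIO go from 4.92 to 38.1 CPM on d3 to d7 up to 647 to 921 CPM on d21, while muscle markers on DIO d21 spread from 503 to 17333 CPM.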

How the data were processed

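Fracture callus RNA was profiled in 30 libraries by stranded poly(A) RNA-seq. The authors deposited raw read counts per gene, made with bcl2fastq, HISAT2 2.1.0 and HTSeq on GRCm38 according to the submitters' processing notes; the strand setting and annotation of the counting are not given in the sources used here. Each column was assigned to its sample by the code in the sample title. Mice are the replicates, with 3 per group.

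The 10 genes and 17 lists of other genes (161 of 162 symbols matched to 1 identifier in GENCODE M21) were chosen with earlier results of these data known. Counts were tested in R 4.3.3 with edgeR 4.0.16 (filterByExpr, TMM factors, quasi-likelihood F-test) over all genes that passed the filter, with Benjamini-Hochberg adjustment and a threshold of 0.05. Diets were compared per day over 6 libraries, days within Lean over 12 or DIO over 18, and the change in diet difference over 24, in 13 comparisons. Tests were checked on simulated counts.

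Alternatives were DESeq2 1.42.0, RLE factors, no filter, a replicate block, all 30 libraries in 1 fit, and leaving out each library. A fit without Lean d3 replicate 3 and DIO d3 replicate 1 was added after seeing the data. Named genes were the 10 members in every comparison, at most 3 genes of each list by adjusted p, and the 10 genes most correlated with Adipoq, of which 1 is not reported here; Cidea, Ucp1 and Cdh13, beyond these limits, were named after their values were seen. No 2 replicates agreed within sampling noise (lowest chi-square per degree of freedom 13.6).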

Additional observations from a re-analysis of the deposited data

Results flagged for a closer look

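The change from d7 to d10 differed between diets for 3 genes when that difference was tested directly with edgeR. The change in DIO minus the change in Lean, on the log2 scale, was 3.92 for Adipoq (adjusted p = 0.0181), 2.03 for Pparg (adjusted p = 0.00707) and 1.87 for Lpl (adjusted p = 0.0251). In DIO all 3 rose from d7 to d10, and in Lean the mean went from 25.0 to 7.40 CPM for Adipoq, from 10.9 to 7.70 CPM for Pparg and from 180 to 147 CPM for Lpl. Groups of 3 libraries were too small for a formal check of single outlying values. Lean d10 replicate 1 was the lowest of its group for all 3 genes. It had 87.1 CPM of Lpl against 202 and 153 CPM, and 4.20 CPM of Pparg against 8.62 and 10.3 CPM. Without it Adipoq and Pparg still passed and Lpl did not.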

How the results depend on the processing

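Counts of the 10 genes called are compared here. For DIO against Lean on d5 the count was 0, and it became 1 (Adipoq) with no filter and 3 with DESeq2. On d7 it was 3 and became 5 with no filter, adding Plin4 and Cfd. On d10 it was 0 and became 1 (Retn) with DESeq2. For Lean d10 against d3 and for any difference between days in Lean it was 0, and 1 (Plin4) with all 30 libraries in 1 fit. For DIO d14 against d10 it was 2, and 1 with RLE factors, 0 with a replicate block and 0 with all 30 libraries. The cause was not tested. Leaving out 1 library at a time gave 0 to 3 on d5, 0 to 3 on d7, 6 to 7 for DIO d10 against d7, 0 to 2 for d14 against d10, 1 to 4 for the change of the diet difference from d7 to d10, and 0 to 3 for its change over d3 to d10. Without Lean d5 replicate 3, Adipoq, Pparg and Lpl were called on d5, and without Lean d5 replicate 1 Adipoq was. The counts of 9 for DIO d21 against d3 and 10 for any difference in DIO held in every alternative, and on d3 and for d21 against d14 the count was 0 in every one, also without Lean d3 replicate 3 and DIO d3 replicate 1.

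The replicate numbers do not pair mice: in no comparison did every same-numbered pair deviate together with a correlation over 0.1, and every library was closest to its own number only in DIO d14 against d10. With the replicate block the count was 2 on d7 (Adipoq and Lpl) and 7 for DIO d10 against d7, and it stayed 3 for the diet difference from d7 to d10.

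Over all genes, the count moved by more than 1.5 times on d3 (0, with 753 by DESeq2, 515 with no filter and 325 with the block), d5 (170, with 1116, 565 and 0, and 63 with all 30 libraries), d7 (366, with 922 by DESeq2, 724 with no filter and 675 with all 30), d10 (0, with 56, 29 and 3 in the same order), DIO d14 against d10 (129, with 563, 329, 45 with the block and 2 with all 30), any Lean difference (3132, with 4777 by DESeq2), the diet difference from d7 to d10 (865, with 1475 by DESeq2) and over d3 to d10 (282, with 1130 by DESeq2 and 503 with no filter). Leaving out 1 library at a time gave 0 to 237 genes on d3, 0 to 935 on d5, 29 to 936 on d7, 0 to 10 on d10, 1510 to 2495 for DIO d10 against d7, 0 to 459 for d14 against d10, 1285 to 4070 for d21 against d14, 2863 to 5016 for Lean d10 against d3, 1678 to 3130 for any Lean difference, 257 to 1660 for the diet difference from d7 to d10 and 0 to 602 over d3 to d10. Of the 58 fold changes of single members recomputed, none changed sign in 690 values, of which 630 kept their side of the threshold, 40 lost it and 20 gained it. Only fold changes with a low unadjusted p in the main fit were recomputed. Weak estimates were left out, so a stable sign was likely from the start. With a prior count of 0.5, 9 of the 10 genes most like Adipoq were the same, and scaling by RLE factors or library totals moved no mean on DIO d21 by more than its SD. With 3 mice a group, the low-count members Lep, Retn, Cidec and Plin1 could not be tested on some days, and 3 counts set the floor.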
